A study of Homo sapiens with 6 samples.

Results

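The 4 MEF2 transcription factors and the 4 class IIa histone deacetylases were followed in breast cancer cells in which a small RNA, tRF-1-Ser, had been knocked down. The question was whether the paralogs of MEF2C rose where MEF2C itself was nearly lost. The set held 9 of the 36517 genes in the deposited count table, taken by symbol: MEF2A, MEF2B, MEF2C, MEF2D, HDAC4, HDAC5, HDAC7, HDAC9 and the antisense RNA MEF2C-AS1. The family was selected on a measured value, the fall of the MEF2C count from control to knockdown in these same libraries, so MEF2C is described here with no test. The other 8 genes came in by kinship or position.

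MEF2 factors are MADS-box proteins that bind an A/T-rich DNA element as dimers, and they are best known for muscle, neuronal, lymphoid and vascular gene programmes. Class IIa deacetylases have little catalytic activity of their own, bind MEF2 at its target genes and bring in the NCOR corepressors with HDAC3. Kinases such as the CaM kinases, protein kinase D and the salt-inducible kinases phosphorylate them, after which 14-3-3 proteins hold them in the cytoplasm and MEF2 is released from repression.

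Messenger RNA had been sequenced at day 3 from MDA-MB-453, an androgen receptor-positive line of human breast cancer with luminal character. The labels give the genotype "Control" for 3 libraries (control, replicates 1 to 3) and "tRF-1-Ser knock down" for 3 libraries (shtRF, replicates 1 to 3). Both groups carried a lentivirus, with a negative-control hairpin in the control cells and a hairpin against tRF-1-Ser, a small RNA from the 3′ end of a precursor of a serine transfer RNA, in the shtRF cells. The study's text calls the cells stable. A single cell line and a single hairpin were used, and whether the replicates came from separate transductions is not stated, so p-values measure the spread between these libraries, which may be technical.

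The libraries held 63541413 to 78917459 counts, a 1.24-fold range, and no library stood apart: the Pearson correlation of log2(CPM + 1) over tested genes was 0.9973 to 0.998 within groups and 0.9878 to 0.9894 between them. CPM is the count scaled to a library total of 1000000 with TMM factors. tRF-1-Ser itself is not measured by mRNA libraries, so the group names rest on the labels. All 8 luminal markers were expressed, with summed levels of 3596 to 3635 CPM in control and 4626 to 5024 CPM in shtRF. Markers of cells in which MEF2C is prominent were low. The 6 lymphoid and myeloid markers summed to 0.212 to 0.369 CPM in control and 0.177 to 0.306 CPM in shtRF, and the 4 endothelial ones to 0.106 to 0.175 and 0.0806 to 0.204 CPM. Of 7 muscle markers, MYOD1 had no row, MYOG had at most 3 counts in any library, and the sum was 2.78 to 3.95 CPM in control and 1.67 to 1.81 CPM in shtRF, most of it TNNT2. Of the 4 fibroblast markers, LUM had no row and DCN had at most 3 counts, and the sum was 29.6 to 35.4 CPM in control and 20.6 to 21.3 CPM in shtRF, nearly all COL1A1. The part of these marker differences in the results was not tested.

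Levels of different genes are given in RPKM, the count per kilobase of exonic length, scaled to a library total of 1000000, and they are levels, not differences. MEF2D was the main MEF2 factor of these cells, with 5.25, 5.36 and 4.67 RPKM in the control libraries. MEF2A followed with 2.47, 2.87 and 2.85 RPKM, and MEF2B with 1.25, 1.07 and 1.11 RPKM. MEF2C stood below all 3 paralogs in control cells, at 0.846, 0.862 and 0.923 RPKM. The order within the MEF2 family was therefore MEF2D, MEF2A, MEF2B and MEF2C, with no overlap between neighbours over the control libraries. The level of MEF2B is uncertain, because 73.9% of its exonic bases also belong to a read-through gene, BORCS8-MEF2B. The gap between MEF2B and MEF2C also depended on the length used. With the longest GENCODE 29 transcript in place of all exons, MEF2C had 1.36 ± 0.0627 and MEF2B 1.26 ± 0.104 RPKM (SD, n = 3), and their ranges overlapped.

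MEF2C, on chromosome 5 (GRCh38, 88717117 to 88904257, minus strand), had 636, 747 and 856 counts in control and 32, 44 and 48 counts in shtRF. Its level went from 0.877 ± 0.0403 to 0.0519 ± 0.0126 RPKM (SD, n = 3). Every shtRF library lay far below every control library. The fitted level was 16.33-fold higher in control, a log2 fold change of -4.03 ± 0.16 (SE), and 10 of the 19628 tested genes fell at least as far, MEF2C included. These values chose the family and are a description.

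Of the 8 other genes, 7 had enough counts to be tested with edgeR. MEF2D, HDAC5 and HDAC4 were upregulated in shtRF at an adjusted p under 0.05, MEF2B was downregulated, and MEF2A, HDAC7 and MEF2C-AS1 did not pass. HDAC9 was too sparse to test. The background was high: 20.6% of all tested genes were higher, 18.9% were lower and 39.5% passed in either direction. The counts of 3 of 7 higher and 1 of 7 lower stand beside a table in which large shares of genes moved each way. The CPM values of the groups did not overlap for the same 4 members, MEF2D, HDAC5, HDAC4 and MEF2B. Among all tested genes, 48.7% showed no overlap, 24.9% with shtRF higher and 23.8% with shtRF lower.

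**Figure D1:**
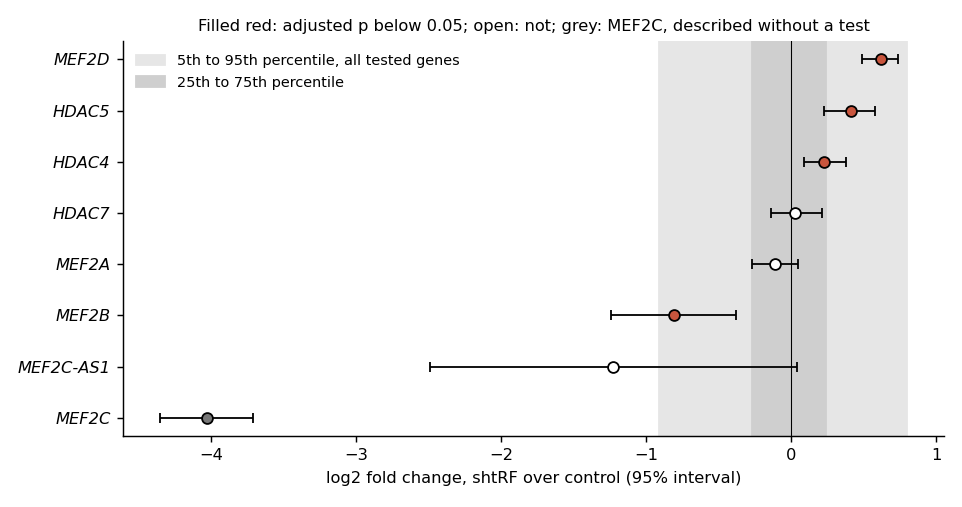
Log2 fold change of shtRF over control for the 8 members that had enough counts for the fit, with 95% intervals. Red points had an adjusted p below 0.05 in edgeR's quasi-likelihood test, open points did not, and MEF2C, in grey, is described without a test. The grey bands give the spread of all tested genes, from -0.91 to 0.80 for the 5th to the 95th percentile. MEF2D, HDAC5, HDAC4 and MEF2B are the red points, and each lies within the wider band.

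MEF2D, on chromosome 1 (156463727 to 156500828, minus strand), is the most widely expressed of the MEF2 genes. It had 2148, 2527 and 2360 counts in control and 3364, 3477 and 3018 counts in shtRF. Per length, this was 5.25, 5.36 and 4.67 RPKM against 7.54, 7.6 and 7.42 RPKM. All shtRF libraries were above all control libraries, and the shtRF libraries lay close together. The rise was 1.53-fold, a log2 fold change of 0.62 ± 0.06 (SE, 95% interval 0.49 to 0.74, adjusted p = 3.99e-08 by edgeR's quasi-likelihood test). No exonic base of MEF2D lay in an exon of another gene. Of all tested genes, 1594 had a larger log2 fold change.

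MEF2A, on chromosome 15 (99565417 to 99716466, plus strand), is the broadly expressed paralog with roles in heart and muscle. It had 1092, 1462 and 1556 counts in control and 1165, 1251 and 1037 counts in shtRF. The levels were 2.47, 2.87 and 2.85 RPKM in control and 2.41, 2.53 and 2.36 RPKM in shtRF, and the groups overlapped through control replicate 1. The log2 fold change was -0.11 ± 0.08 (SE, adjusted p = 0.282 by edgeR's quasi-likelihood test), and its 95% interval of -0.27 to 0.05 left out a rise of the size seen for MEF2D. A share of 11.1% of its exonic bases lay in exons of LYSMD4 on the opposite strand, for which the log2 fold change was 0.37 ± 0.18 (SE, adjusted p = 0.121 by edgeR).

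MEF2B, on chromosome 19 (19145568 to 19170289, minus strand), is the most diverged member and is known for its role in germinal-centre B cells. It had 148, 146 and 162 counts in control and 105, 75 and 59 counts in shtRF, or 1.25, 1.07 and 1.11 RPKM against 0.815, 0.568 and 0.502 RPKM. All control libraries were above all shtRF libraries, although the shtRF libraries differed among themselves, with replicate 1 highest. The level was 1.75-fold higher in control, a log2 fold change of -0.81 ± 0.21 (SE, 95% interval -1.24 to -0.38, adjusted p = 0.00307 by edgeR's quasi-likelihood test). MEF2B thus fell, in the direction of MEF2C and not in that of MEF2D.

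The value of MEF2B is uncertain because 73.9% of its exonic bases also belong to BORCS8-MEF2B, a read-through gene on the same strand that joins MEF2B to its neighbour BORCS8. BORCS8-MEF2B had 325, 335 and 365 counts in control and 357, 275 and 232 counts in shtRF, and its log2 fold change was -0.12 ± 0.13 (SE, adjusted p = 0.506 by edgeR). BORCS8 had a log2 fold change of 0.08 ± 0.11 (SE) with an adjusted p of 0.619. How the authors' counting divided reads in shared exons is not given in the sources used here. Of genes lying wholly inside the exons of another gene on the same strand, 62.5% of 315 had a mean of 10 counts or more. Overlap thus did not keep such genes from being counted. On the opposite strand the share was 61.5% of 551. That share cannot show the strand setting, because stranded counting would also give those genes their own reads.

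**Figure D2:**
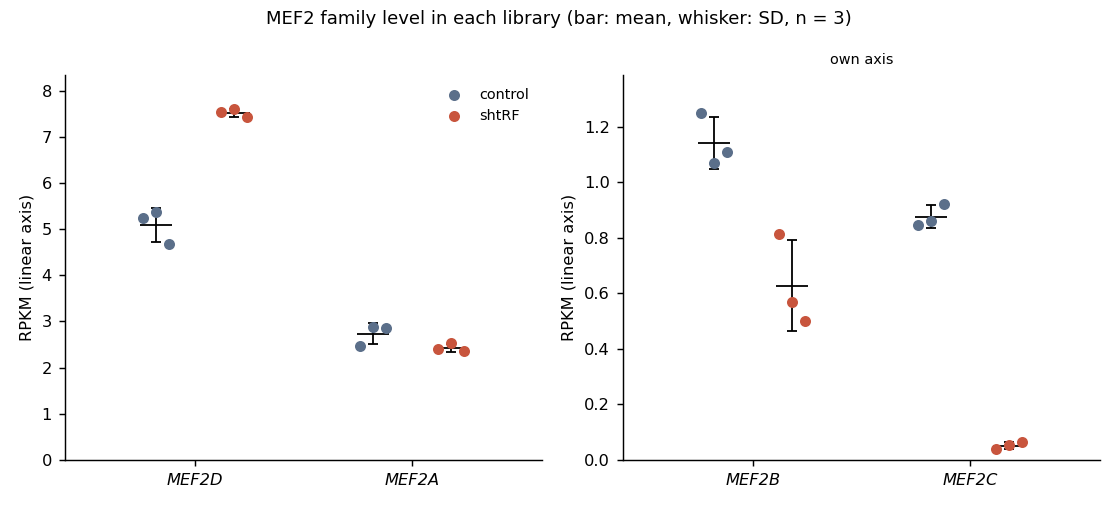
RPKM of MEF2D, MEF2A, MEF2B and MEF2C in each library, on linear axes that start at 0, with MEF2B and MEF2C on an axis of their own. Points are libraries, horizontal bars are means and whiskers are SD (n = 3). MEF2D is higher in all shtRF libraries, MEF2A overlaps, and MEF2B and MEF2C are lower in all shtRF libraries.

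Summed per length, the family did not fall. MEF2A, MEF2B, MEF2C and MEF2D together gave 9.81, 10.2 and 9.55 RPKM in control and 10.8, 10.7 and 10.3 RPKM in shtRF, a ratio of 1.08 with no overlap between the groups. The difference in mean level, shtRF minus control, was -0.825 RPKM for MEF2C, 2.43 RPKM for MEF2D, -0.517 RPKM for MEF2B and -0.294 RPKM for MEF2A. The 3 paralogs without MEF2C summed to 8.97 ± 0.333 RPKM in control and 10.6 ± 0.264 RPKM in shtRF (SD, n = 3), a ratio of 1.18. MEF2D was the sole MEF2 gene with a higher mean in shtRF. With the longest transcript as the length, the ratio for all 4 factors was 1.04 and the groups overlapped, while the 3 paralogs kept a ratio of 1.17 with no overlap. None of these RPKM values carried a TMM factor. With all exons as the length and RPKM divided by the TMM factor, the ratios were 1.12 for all 4 factors and 1.23 for the 3 paralogs. Neither sum overlapped between groups. The differences were then -0.808 RPKM for MEF2C, 2.67 RPKM for MEF2D, -0.486 RPKM for MEF2B and -0.196 RPKM for MEF2A.

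The make-up of the family shifted toward MEF2D. Its share of the summed MEF2 RPKM was 51.7% ± 2.5 in control and 70.7% ± 0.99 in shtRF (SD, n = 3). The share of MEF2A was 27.7% ± 2.4 and 22.9% ± 0.6, that of MEF2B 11.6% ± 1.1 and 5.89% ± 1.4, and that of MEF2C 8.92% ± 0.64 and 0.49% ± 0.13. The shares of one library sum to a whole, so they are not independent of each other. The sums and shares also carry the uncertainty of the MEF2B value. In bulk RNA, fewer cells that express a gene and less RNA per cell cannot be told apart. These are transcript levels, and neither MEF2 protein nor its activity was measured in these libraries.

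**Figure D3:**
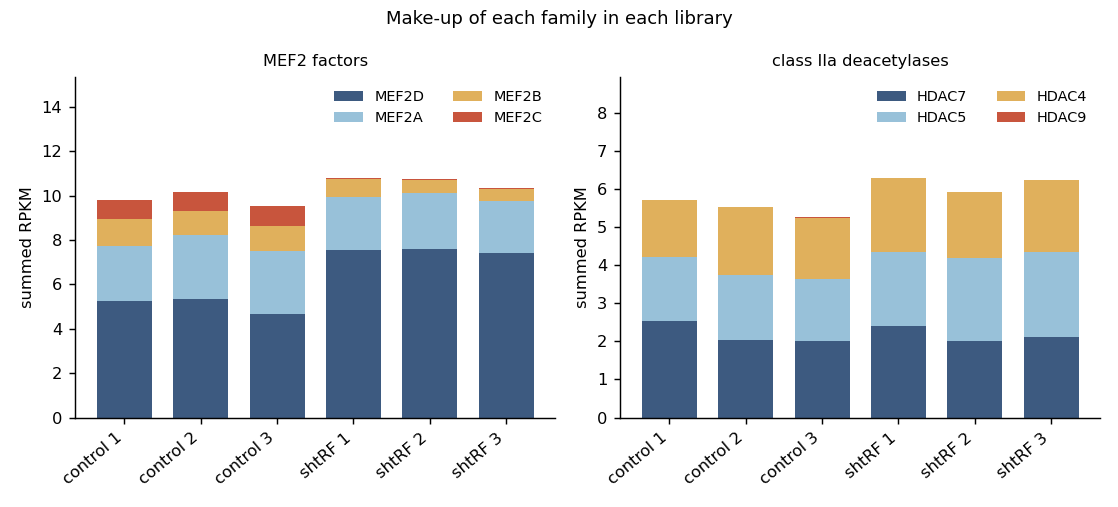
Summed RPKM of the 4 MEF2 factors (left) and of the 4 class IIa deacetylases (right) in each library, on linear axes from 0, with a colour for each gene. The MEF2 sums are 9.55 to 10.2 RPKM in control and 10.3 to 10.8 RPKM in shtRF, and the MEF2C segment shrinks while the MEF2D segment grows. HDAC9 is too low to be seen in most bars.

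Letters that match the MEF2 consensus motif also occur in promoter windows of the family itself. In the RefSeq promoter windows used here (GRCh38.p14, 250 bases before to 50 after each transcript start), the MEF2 consensus motif was searched on both strands, and 1050 of 35116 windows of all genes held it, or 2.99%. It was found in 1 of 3 windows of MEF2A, 1 of 7 of MEF2C and 1 of 5 of HDAC9. It was found in none of the windows of MEF2B (1), MEF2D (1), HDAC4 (5), HDAC7 (1) and MEF2C-AS1 (1). HDAC5 had no window and so was not searched. Windows of one gene can overlap, so these are not independent counts. The 2.99% is a share of windows and not of genes, and a gene with more windows can match more easily. The 3 matches are given on the strand of the gene, with the motif in capitals. They are where the members' own promoter windows match the consensus. A match is a description of the letters and not a measured binding site.
MEF2A, chr15:99565951-99565980, plus strand: ggcttgtctcCTAAAAATAGccccggtgtg
MEF2C, chr5:88824500-88824529, minus strand: atattccataTTATTTTTAAggtgttctca
HDAC9, chr7:18086807-18086836, plus strand: ccaagaagtgCTATTTTTAGcaaattctcc
The genes with these letters were MEF2C, which was nearly lost, MEF2A, which did not pass the test, and HDAC9, which was close to the detection limit. MEF2D, which rose, and MEF2B, which fell, had no match in their windows. HDAC4, which passed as higher, had none either, and HDAC5, which rose, was not searched. The MEF2C match belonged to a different start from the one at 88883184 that faces MEF2C-AS1. Whether the motif goes with the changes was not tested.

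HDAC5, on chromosome 17 (44076746 to 44123702, minus strand), is a class IIa deacetylase known as a signal-responsive repressor in heart and muscle. It had 810, 964 and 970 counts in control and 1036, 1192 and 1081 counts in shtRF, or 1.66, 1.72 and 1.61 RPKM against 1.95, 2.19 and 2.23 RPKM. All shtRF libraries were above all control libraries. The rise was 1.33-fold, a log2 fold change of 0.41 ± 0.08 (SE, 95% interval 0.23 to 0.58, adjusted p = 0.000433 by edgeR's quasi-likelihood test).

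HDAC4, on chromosome 2 (239048168 to 239401654, minus strand), is the deacetylase known for restraining hypertrophy of cartilage cells. It had 1302, 1740 and 1695 counts in control and 1810, 1640 and 1608 counts in shtRF, or 1.52, 1.77 and 1.61 RPKM against 1.94, 1.72 and 1.89 RPKM. On this scale shtRF replicate 2 lay below control replicate 2. On the TMM-scaled CPM the groups did not overlap, with at most 23.0 CPM in control and at least 23.9 CPM in shtRF. The fit gave a 1.18-fold rise, a log2 fold change of 0.23 ± 0.07 (SE, 95% interval 0.09 to 0.38, adjusted p = 0.0119 by edgeR's quasi-likelihood test). This was the weakest call among the members, and it was lost without control replicate 1 (log2 fold change 0.18, adjusted p = 0.0719 by edgeR), without shtRF replicate 1 (0.21, adjusted p = 0.0559) and without shtRF replicate 3 (0.21, adjusted p = 0.0573).

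HDAC7, on chromosome 12 (47782722 to 47833132, minus strand), is known from endothelial cells and thymocytes and was the most abundant class IIa deacetylase in control cells. It had 1613, 1488 and 1586 counts in control and 1654, 1421 and 1337 counts in shtRF, or 2.54, 2.03 and 2.02 RPKM against 2.39, 2.00 and 2.12 RPKM. The groups overlapped over most of their range, and replicate 1 was highest in each. The log2 fold change was 0.03 ± 0.08 (SE, 95% interval -0.14 to 0.21, adjusted p = 0.792 by edgeR), and its sign turned under other settings. A share of 11.2% of its exonic bases lay in exons of other genes.

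HDAC9, on chromosome 7 (18086949 to 19002416, plus strand), is a deacetylase known from muscle and regulatory T cells, and it was barely detected. It had 0, 10 and 12 counts in control and 10, 2 and 4 counts in shtRF. In control replicate 1 a count of 0 allows a level of up to 0.0469 CPM before TMM scaling, that of 3 independent counts, for counting error only. Both mates of a pair seem to have been counted, so counts are not independent and the true limit is higher. Both groups spanned the same low range, and a difference was not detectable at this depth.

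**Figure D4:**
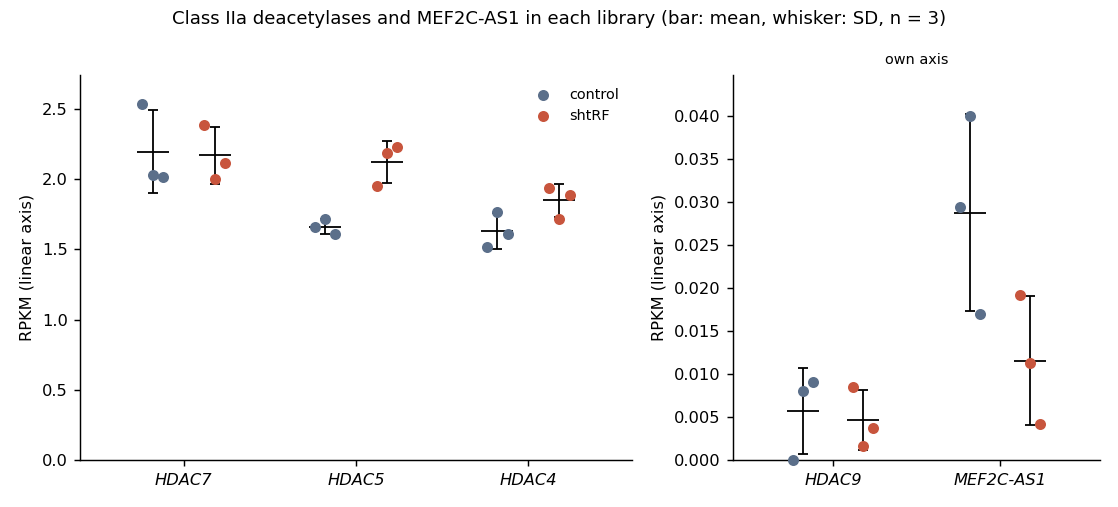
RPKM of HDAC7, HDAC5 and HDAC4 in each library, and of HDAC9 and MEF2C-AS1 on an axis of their own, all linear and from 0. Points are libraries, horizontal bars are means and whiskers are SD (n = 3). HDAC5 is higher in all shtRF libraries, HDAC4 and HDAC7 overlap on this scale, and HDAC9 and MEF2C-AS1 stay at or below 0.04 RPKM.

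The 4 class IIa deacetylases summed to 5.73, 5.53 and 5.25 RPKM in control and 6.29, 5.91 and 6.25 RPKM in shtRF, a ratio of 1.12 with no overlap. Divided by the TMM factor, the sums had a ratio of 1.16, also with no overlap. In control cells the order was HDAC7, HDAC5, HDAC4 and HDAC9, where HDAC5 and HDAC4 overlapped. In shtRF cells HDAC7 and HDAC5 overlapped, at 2.17 ± 0.199 and 2.12 ± 0.152 RPKM (SD, n = 3). The share of HDAC5 in the sum was 30.3% ± 1.1 in control and 34.6% ± 3.2 in shtRF, while HDAC4 had 29.7% ± 2.8 and 30.1% ± 0.93. With the longest transcript as the length, the ratio of the sums was 1.09 and the groups overlapped. The closeness of HDAC7 and HDAC5 in shtRF also depended on the length. Per longest transcript they had 5.26 ± 0.482 and 3.04 ± 0.217 RPKM (SD, n = 3), with no overlap. The share of HDAC5 was then 23.5% ± 1.3 in control and 27.5% ± 2.9 in shtRF, and that of HDAC7 52.4% ± 4.1 and 47.5% ± 2.5.

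MEF2C-AS1 runs antisense to MEF2C on chromosome 5 (88883328 to 89466398, plus strand). In RefSeq its start lies 146 bases from a start of MEF2C, and the pair run away from each other. It had 14, 22 and 10 counts in control and 10, 6 and 2 counts in shtRF, so single libraries of the groups shared a count of 10. The log2 fold change was -1.23 ± 0.61 (SE, 95% interval -2.49 to 0.04, adjusted p = 0.118 by edgeR). A share of 5.7% of its exonic bases lay in exons of MEF2C on the opposite strand, and without a stated strand setting in the counting, reads of the pair cannot be told apart there.

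The 2 nearest tested genes on each side of MEF2C had smaller changes. On the lower side, LINC00461, a long noncoding RNA 26076 bases away, had a log2 fold change of 0.33 ± 0.44 (SE) with an adjusted p of 0.589 by edgeR. Next to it TMEM161B-AS1, 280432 bases from MEF2C, rose by 0.41 ± 0.12 on the log2 scale (SE, adjusted p = 0.00825). On the other side, CETN3, which encodes a centrin 1488004 bases away, fell by 0.39 on the log2 scale (SE 0.06, adjusted p = 8.66e-06 by edgeR), and MBLAC2, 1553946 bases away, had a value of -0.05 ± 0.10 (SE, adjusted p = 0.735). These 4 genes lay between -0.39 and 0.41, against -4.03 for MEF2C. Genes that overlap MEF2C are a separate case. MEF2C-AS1 had a log2 fold change of -1.23, which did not pass. The noncoding gene CTC-467M3.1, chosen after its values were seen, shares 44.9% of its exonic length with MEF2C on the opposite strand and was too sparse to test. It had 3, 15 and 9 counts in control and 0, 2 and 0 counts in shtRF, so all control libraries were above all shtRF libraries, and without a stated strand setting its reads cannot be told apart from those of MEF2C in the shared bases.

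The genes whose profile was most like that of MEF2C lay on other chromosomes. Over the 6 libraries, Pearson's r of log2(CPM + 1) with MEF2C was 0.9991 for RMND5A, 0.9989 for ADGRA3, 0.9987 for ARHGAP5, 0.9987 for TNC and 0.9986 for RPS2, among 13188 genes with a mean of at least 2 CPM. Their own log2 fold changes were between -0.88 for RPS2 and -0.57 for ARHGAP5. RPS2 has processed pseudogenes that can share its reads, so its value is uncertain. With only 2 groups of 3 libraries, any gene that separates the groups cleanly gives a high r, and 241 genes reached 0.99.

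The regulators and partners of the members were read from 6 lists of textbook genes, each beside the median of 0.00 and the shares of 20.6% higher and 18.9% lower for all tested genes. Of 19 kinases that act on class IIa deacetylases, 15 were tested, 4 rose and 5 fell, with a median log2 fold change of -0.11. The count of kinases that rose was unstable: it was 2 without control replicate 1 or control replicate 3, 1 without shtRF replicate 2 or shtRF replicate 3, and 1 in limma-trend with either pseudocount, while 5 or 6 fell in each of these. The median was -0.03 without shtRF replicate 2 and -0.05 without shtRF replicate 3. PRKD1, a protein kinase D that phosphorylates HDAC5 and HDAC7, fell from 4.24 ± 0.246 to 1.76 ± 0.346 CPM (SD, n = 3), and its log2 fold change was -1.26 ± 0.16 (SE, adjusted p = 1.31e-06 by edgeR). PRKAA2, a catalytic subunit of AMP-activated kinase with 7.2 ± 1.38 CPM in control (SD, n = 3), fell by 0.81 on the log2 scale (SE 0.14, adjusted p = 6.87e-05 by edgeR). The other catalytic subunit, PRKAA1, was more abundant and rose from 29.4 ± 0.992 to 39.4 ± 2.04 CPM (SD, n = 3). Its log2 fold change was 0.42 ± 0.06 (SE, adjusted p = 9.88e-06 by edgeR). The 3 protein kinase D genes differed, since PRKD2 had a log2 fold change of 0.04 ± 0.07 (SE) with an adjusted p of 0.737 and PRKD3 one of 0.16 ± 0.18 (SE, adjusted p = 0.529). PRKAA1, PRKD2 and PRKD3 are given for comparison and were chosen after their values were seen.

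Among 14-3-3 proteins, phosphatases and the exportin XPO1, 13 of 14 were tested, 6 rose and 3 fell, with a median of 0.03, and 5 fell with upper quartile scaling or in limma-trend. YWHAH, the eta form of 14-3-3, rose from 155 ± 8.96 to 226 ± 10.7 CPM (SD, n = 3), and its log2 fold change was 0.54 ± 0.06 (SE, adjusted p = 9.34e-08 by edgeR). The 14-3-3 genes went both ways. YWHAB and YWHAG also rose, with log2 fold changes of 0.41 and 0.17 (adjusted p = 4.58e-06 and 0.0167 by edgeR). YWHAQ and YWHAZ fell, with -0.45 and -0.18 (adjusted p = 6.44e-07 and 0.00874 by edgeR), and YWHAE and SFN did not pass. The 14-3-3 genes besides YWHAH were chosen after their values were seen. Of 9 MAP kinases and upstream kinases that activate MEF2, 8 were tested, 2 rose (MAP3K2 and MAPK12) and 1 fell (MAP2K5), with a median of 0.22 and none past 0.5 in size. These names were read off after the values were seen. The count that fell was 0 without control replicate 1, shtRF replicate 2 or shtRF replicate 3, 1 gene rose in limma-trend, and the median was 0.11 with no filter on low counts and 0.08 in limma-trend with a pseudocount of 1.

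Corepressors and coactivators that meet MEF2 or the deacetylases were tested for 25 of 26 genes, of which 8 rose and 5 fell, with a median of 0.07. The median was 0.03 with upper quartile scaling and 0.10 without control replicate 2. In limma-trend it was 0.01 with a pseudocount of 1 and 0.02 with a pseudocount of 0.1. TBL1X, a subunit of the NCOR corepressor complex, fell from 35.4 ± 1.67 to 16.8 ± 1.9 CPM (SD, n = 3), and its log2 fold change was -1.08 ± 0.08 (SE, adjusted p = 2.18e-10 by edgeR). GPS2, another subunit of that complex, rose by 0.74 ± 0.07 (SE, adjusted p = 8.25e-09), but 52.5% of its exonic bases lay in exons of other genes. The acetyltransferase KAT2B rose by 0.68 ± 0.09 (SE, adjusted p = 4.16e-06 by edgeR), the chaperone DNAJB5 by 0.55 ± 0.10 (SE, adjusted p = 0.000128), and BCL6, a repressor that binds class IIa deacetylases, fell by 0.55 (SE 0.11, adjusted p = 0.000517).

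Genes known as MEF2 targets moved in both directions. Of 33 listed, 21 were tested, 5 rose and 6 fell, with a median of -0.02, and the 12 others were too low to test, among them the muscle genes MYOG, DES, CKM and MYH7. The count that rose was 3 without shtRF replicate 1 and 3 in limma-trend with either pseudocount, and the median was -0.08 without shtRF replicate 1, 0.06 without shtRF replicate 2 and 0.11 with no filter on low counts. The Krüppel-like factor KLF4 rose from 4.24 ± 0.618 to 11.1 ± 1.02 CPM (SD, n = 3), and its log2 fold change was 1.38 ± 0.11 (SE, adjusted p = 2.38e-09 by edgeR), and KLF2, a target in endothelium, rose by 0.90 ± 0.13 (SE, adjusted p = 7.9e-06). The immediate early gene EGR1 fell from 5.34 ± 0.478 to 1.63 ± 0.246 CPM, a log2 fold change of -1.71 ± 0.15 (SE) with an adjusted p of 6.19e-09 by edgeR. ATF3, a stress-induced factor, went from 9.73 ± 3.98 to 4.4 ± 0.908 CPM (SD, n = 3). Its log2 fold change was -1.14 ± 0.21 (SE, adjusted p = 0.000173 by edgeR). It had 824, 856 and 415 counts in control and 244, 304 and 328 counts in shtRF. Scaled to CPM, control replicate 3 lay just below shtRF replicate 3, so the groups overlapped. The fall of ATF3 thus rested on control replicates 1 and 2. HOMER1, a synaptic scaffold, fell by 0.58 on the log2 scale (SE 0.06, adjusted p = 1.64e-07 by edgeR). The genes of the list that passed went both ways.

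**Figure D5:**
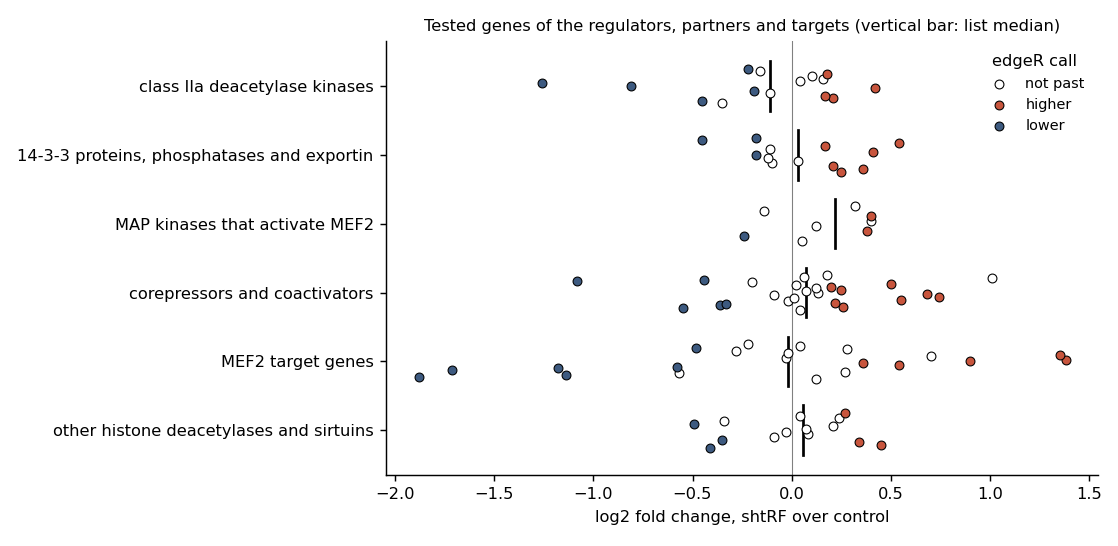
Log2 fold change of shtRF over control for the tested genes of the 6 lists, a row of points for each list, with a vertical bar at the list's median. Red and blue points were higher or lower at an adjusted p below 0.05 in edgeR's quasi-likelihood test, and open points did not pass. Every list holds both red and blue points, and the medians lie between -0.11 and 0.22.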

How the data were processed

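The authors deposited raw read counts per gene for 6 mRNA libraries, with exon coordinates, and RPKM values. The submitters' processing notes name Trimmomatic 0.36, featureCounts of Subread 1.5.1, edgeR 3.12.1 and GRCh38. The aligner is not given in the sources used here. For 4991 genes compared, 100% of the deposited RPKM values equalled count over length and library total within 0.1%, so RPKM was recomputed for all genes. Even values made up 74.2% to 77.1% of counts of 1 to 4, so both mates of a pair seem to have been counted, and small counts rest on fewer fragments.

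Counts were fitted with edgeR 4.0.16 in R 4.3.3 (filterByExpr with a minimum count of 10, TMM, quasi-likelihood test) with a term for group and no other, using all 6 libraries, and Benjamini-Hochberg adjustment covered 19628 genes. TMM factors were 0.961 to 1.026 and the coefficient of variation between replicates was 7.56%. Alternatives used DESeq2 1.42.0 and limma 3.58.1. The members and lists were chosen with earlier results of these data known. Beside the members, genes were named by rule: the 2 nearest tested genes on each side of MEF2C, genes covering 10% or more of a member's exonic bases, up to 5 genes a list with an adjusted p under 0.05, at least 2 CPM and a log2 fold change of at least 0.5 in size, and the 5 genes most like MEF2C.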

Additional observations from a re-analysis of the deposited data

How the results depend on the processing

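MEF2D and HDAC5 stayed higher, MEF2B stayed lower, and MEF2A and MEF2C-AS1 stayed short of the threshold in every alternative that gave a value (15 for each, and 13 for MEF2C-AS1): RLE and upper quartile scaling, other filters on low counts, DESeq2, limma-trend on log2(RPKM + 1) and log2(RPKM + 0.1), counts divided in 2 for mates, a replicate block and leaving out each library. Adjusted p ranged from 2.22e-18 to 0.00081 for MEF2D, 5.04e-05 to 0.0273 for HDAC5, 0.000457 to 0.0233 for MEF2B, 0.00758 to 0.227 for HDAC4, 0.084 to 0.537 for MEF2A, 0.181 to 0.989 for HDAC7 and 0.0938 to 0.451 for MEF2C-AS1. HDAC4 lost its call in limma-trend, with log2 fold changes of 0.12 (pseudocount of 1, adjusted p = 0.22) and 0.17 (0.1, adjusted p = 0.227), and without control replicate 1, shtRF replicate 1 or shtRF replicate 3. HDAC7 turned to -0.0018 with upper quartile scaling and to -0.01 with either pseudocount in limma-trend, and was also below 0 without control replicate 2, control replicate 3 or shtRF replicate 1. The log2 fold change of MEF2C in limma-trend was -0.84 with a pseudocount of 1 and -2.69 with 0.1, since the pseudocount is large beside its level. Leaving out each library gave log2 fold changes of 0.56 to 0.64 for MEF2D, -0.18 to -0.07 for MEF2A, -1.03 to -0.68 for MEF2B, -4.20 to -3.85 for MEF2C, 0.37 to 0.48 for HDAC5, 0.18 to 0.28 for HDAC4, -0.03 to 0.14 for HDAC7 and -1.77 to -0.86 for MEF2C-AS1, with 2 to 3 members higher and 1 lower. Over all tested genes, 4046 were higher and 3704 lower, against 3508 and 4174 with upper quartile scaling and 2900 and 3803 in limma-trend with a pseudocount of 1. Of 270 values for the lists, 37 moved by more than their spread or by more than 1.5 times. The length used per gene, the longest transcript, was an alternative chosen after seeing the data.

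The replicate numbers did not pair the libraries: deviations from the group means correlated at 0.059, 0.018 and 0.017 between libraries of one number. With the replicate block MEF2D had a log2 fold change of 0.62 and HDAC4 one of 0.23, and no member's call changed.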

Other observations

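Of the 14 other histone deacetylases and sirtuins, all tested, 3 rose, 3 fell and 8 did not pass, with a median log2 fold change of 0.06, beside 20.6% higher and 18.9% lower among all tested genes. The class I enzymes HDAC1 and HDAC2 fell by 0.41 and 0.35 on the log2 scale (SE 0.05 and 0.06, adjusted p = 1.17e-06 and 7.35e-05 by edgeR's quasi-likelihood test). HDAC3, the catalytic partner of the class IIa enzymes, had a value of -0.09 ± 0.07 (SE, adjusted p = 0.306). HDAC10 rose by 0.45 ± 0.11 (SE, adjusted p = 0.00269 by edgeR), HDAC11 by 0.34 ± 0.12 (SE, adjusted p = 0.0298) and SIRT7 by 0.27 ± 0.06 (SE, adjusted p = 0.00141), while SIRT3, a mitochondrial sirtuin, fell by 0.49 (SE 0.09, adjusted p = 0.000243 by edgeR). In every alternative 3 genes fell, whereas the count that rose was 0 in limma-trend on log2(RPKM + 1) and 1 on log2(RPKM + 0.1). These genes are listed because the counts are small, and they were chosen after their values were seen. Whether the class I and class IIa genes differed from each other was not tested.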
